A study of Mus musculus with 2 samples.

Results

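The 40 genes described here act at set points of the cell division cycle. They were chosen by symbol among the 26078 genes of the matrix, and all 40 had UMIs (unique molecular identifiers, each a tagged RNA molecule) in both libraries. They fall into 13 S-phase genes, 22 mitotic genes of G2 and M, and 5 broad genes (Stmn1, Tubb5, Hmgb2, Cks1b and H2afz), which cells that do not divide also make. They were measured by single-cell RNA sequencing in the livers of 1 Spta wt/wt and 1 Spta sph/sph littermate, both male, untreated and between 8 and 10 weeks of age. Non-parenchymal cells had been enriched with magnetic beads for F4/80, a macrophage surface protein. Mice homozygous for sph lack a working red cell spectrin, have fragile red cells and are anemic. Each genotype was 1 mouse, and no label used here ties a barcode suffix to a genotype, so values are given for library 1 and library 2 without a genotype.

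A cell that divides first passes from G1 into S phase, where the replication origins are opened by the Mcm helicase and deoxynucleotides are supplied by Rrm1, Rrm2, Tyms, Tk1 and Dut. The cyclins and kinases of mitosis then condense the chromosomes, attach them to the spindle and part them, after which the anaphase-promoting complex, with its enzyme Ube2c, destroys the cyclins. S-phase genes are switched on by E2F factors, and mitotic genes later by the B-Myb and FoxM1 system through a promoter element called CHR. Red cell precursors divide several times while they fill with hemoglobin, then leave the cycle and expel the nucleus. Kupffer cells, the macrophages of the liver, renew themselves at a slow pace.

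Promoter sequences of the members that mark the early and the late program are shown first, since the difference between these programs is what the counts below turn on. RefSeq (build GRCm38.p6) gave promoters of 33 of the 40 members. The 250 bases that end just before the annotated start are printed 5′ to 3′ in the direction of the gene, with capitals for TTTGAA (CHR) and TTGGCGC (E2F) on either strand.
Ube2c, chr2:164769679-164769928, plus strand: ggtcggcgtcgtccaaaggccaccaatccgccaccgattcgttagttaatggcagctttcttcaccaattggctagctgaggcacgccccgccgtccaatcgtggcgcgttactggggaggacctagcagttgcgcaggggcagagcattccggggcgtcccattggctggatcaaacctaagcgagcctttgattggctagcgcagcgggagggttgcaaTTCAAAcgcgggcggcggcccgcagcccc
Top2a, chr11:99024190-99024439, minus strand: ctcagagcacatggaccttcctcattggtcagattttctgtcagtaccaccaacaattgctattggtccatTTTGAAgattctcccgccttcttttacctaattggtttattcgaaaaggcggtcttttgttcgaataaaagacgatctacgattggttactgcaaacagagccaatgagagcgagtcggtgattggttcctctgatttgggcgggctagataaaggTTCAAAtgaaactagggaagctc
Mki67, chr7:135716380-135716629, minus strand: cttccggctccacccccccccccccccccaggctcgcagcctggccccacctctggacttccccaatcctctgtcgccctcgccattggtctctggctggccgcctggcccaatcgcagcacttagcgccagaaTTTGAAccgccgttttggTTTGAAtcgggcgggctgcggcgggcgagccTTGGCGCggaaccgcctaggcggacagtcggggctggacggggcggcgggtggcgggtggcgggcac
Mcm5, chr8:75109259-75109508, plus strand: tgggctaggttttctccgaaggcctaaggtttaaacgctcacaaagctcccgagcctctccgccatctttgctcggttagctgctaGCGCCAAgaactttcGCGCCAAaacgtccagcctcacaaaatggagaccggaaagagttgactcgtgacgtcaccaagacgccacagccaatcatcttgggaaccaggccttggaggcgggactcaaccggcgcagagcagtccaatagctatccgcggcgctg
Mcm6, chr1:128359706-128359955, minus strand: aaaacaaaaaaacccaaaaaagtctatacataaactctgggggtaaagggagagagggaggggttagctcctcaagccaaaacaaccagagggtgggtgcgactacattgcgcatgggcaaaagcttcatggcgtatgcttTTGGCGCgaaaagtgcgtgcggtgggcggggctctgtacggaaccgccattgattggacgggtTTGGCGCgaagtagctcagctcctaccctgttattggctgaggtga
Ube2c, Top2a and Mki67 are mitotic members, and Mcm5 and Mcm6 belong to the replicative helicase. Of the S-phase promoters searched, only those of Mcm5 and Mcm6 had the E2F letters capitalized here before the start. They do not stand for the other S-phase members. In windows of 300 bases, from 250 before to 50 after the start, TTTGAA on either strand was found in 12 of 18 mitotic promoters and in 1 of 12 S-phase promoters, Mcm2. It was found in 18.1% of all 27025 promoters of the table. TTGGCGC on either strand was found in 4 of 12 S-phase promoters (Mcm3, Mcm5, Mcm6 and Mcm7), in 3 of 18 mitotic promoters (Mki67, Cdk1 and Ccnb1) and in 2.54% of all. The related letters GGCGGGAA were found in 2 of 12 S-phase promoters (Mcm3 and Rrm1), in 0 of 18 mitotic promoters and in 2.24% of all. CCAAT, which on either strand can overlap each of the other letters, was found in 16 of 18 mitotic and 8 of 12 S-phase promoters, against 37.9% of all. These matches are a description of the letters in these windows.

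Barcodes under 200 genes or above 20% mitochondrial UMIs were set aside, which left 3488 cells of library 1 and 6942 cells of library 2, with 14117134 and 45802199 UMIs. The members held 23623 UMIs (0.167%) in library 1 and 169414 UMIs (0.370%) in library 2. Cells were assigned to a lineage where they passed the gate of that lineage and of no other. The erythroid gate was passed with the early or the late erythroid marker list, or with both. A total of 955 barcode sequences occurred in both libraries, and 815 kept cells of library 1 (23.4%) had at least 5-fold fewer UMIs than the cell with the same barcode in library 2. All globin-poor and globin-intermediate erythroid cells of library 1 were among these shallow barcodes, so erythroid values are given for library 2 only. Of the Kupffer-gated cells of library 1, 508 of 2261 were shallow shared barcodes. No test between libraries was possible with 1 library per genotype, and all intervals are 95% intervals that cover counting error only.

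Erythroid cells of library 2 held most of the cell cycle RNA. The 912 erythroid cells were 13.1% of its kept cells and 20.3% of its UMIs, and they held 74.1% of its S-phase UMIs, 79.4% of its mitotic UMIs and 57.7% of its broad UMIs. The 4242 Kupffer-gated cells, 61.1% of the cells, held 17.4%, 10.9% and 27.0%. By member, the erythroid share was between 56.4% for Tk1, thymidine kinase of the salvage pathway, and 89.0% for Ccne1, the cyclin of S-phase entry, among S-phase genes. Among mitotic genes it was between 67.8% for Bub1b and 84.6% for Ccnb1. In library 1 the Kupffer-gated cells, 64.8% of the cells, held 59.4% of S-phase and 57.4% of mitotic UMIs.

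Levels are given as CPM, the UMIs of a gene per 1000000 UMIs of the lineage in that library. They come from 3′ tags and are not divided by gene length. In Kupffer-gated cells of library 1 the S-phase sum was 295 CPM (285 to 306) and the mitotic sum 299 CPM (289 to 310), and in those of library 2 they were 243 CPM (237 to 248) and 220 CPM (215 to 226). In globin-poor erythroid cells of library 2, those with under 25% globin UMIs, the S-phase sum was 4727 CPM (4668 to 4786) and the mitotic sum 5296 CPM (5234 to 5359). Globin-poor erythroid cells were thus 4.28 (4.25 to 4.32) above Kupffer-gated cells of the same library in the S-phase sum on the log2 scale, and 4.59 (4.55 to 4.63) above them in the mitotic sum. All 40 members were at least 2-fold higher, where 31.6% of 8688 genes with at least 10 CPM in either group were, and 0 were lower, where 30.4% were. The smallest log2 ratio was that of Tubb5 (2.36, a tubulin) and the largest that of Ccne1 (6.06), with a median of 4.44 over the members and 0.18 over all genes tested.

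**Figure D1:**
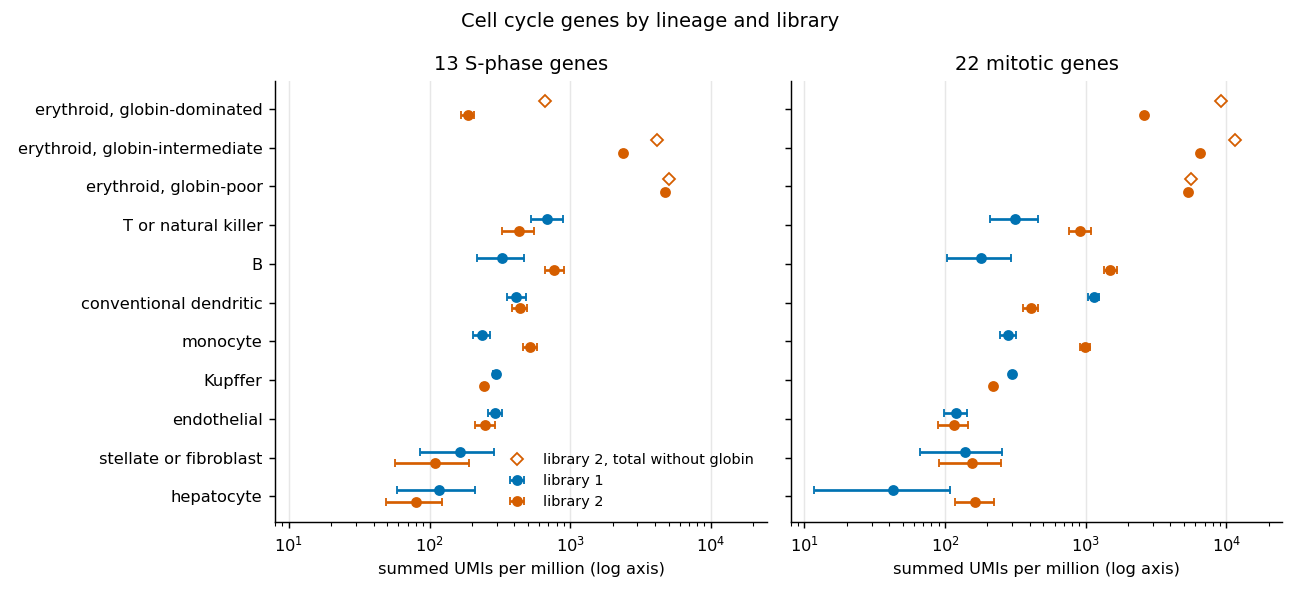
Summed S-phase (left) and mitotic (right) UMIs per 1000000 UMIs of each lineage on a log axis, for library 1 (blue) and library 2 (orange), with exact Poisson 95% intervals. Open diamonds give erythroid stages of library 2 per 1000000 non-globin UMIs. Erythroid values stand at the right in both panels, except the S-phase sum of globin-dominated cells, 187 CPM.

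The members followed over all lineages showed the same gap. Pcna, the replication clamp, was at 337 CPM in globin-poor erythroid cells. It was between 10.7 and 113 CPM in the other lineages of either library with at least 24 cells, with the lowest values in hepatocyte-gated cells and the highest in T or natural killer-gated cells of library 1 (10 UMIs). Rrm1, the large subunit of ribonucleotide reductase, was at 524 CPM in globin-poor and 264 CPM in globin-intermediate erythroid cells. In non-erythroid lineages with at least 24 cells it was at most 69.0 CPM, in B-gated cells of library 2. Dut, the dUTPase, was at 715 CPM in globin-poor erythroid cells and at 12.3 CPM in Kupffer-gated cells of library 2. Its highest value in the non-erythroid lineages with at least 24 cells was 152 CPM, in B-gated cells of library 2. Ccne1 stood at 218 CPM in globin-poor cells, against 1.86 and 3.26 CPM in the Kupffer-gated cells of libraries 1 and 2 and at most 14.5 CPM in the other lineages, monocyte-gated cells of library 2. Among non-erythroid lineages with at least 24 cells, B-gated cells of library 2 had the highest level of 28 of the 40 members in that library, from 68 cells. Of these 28 members 16 were mitotic, and most mitotic UMIs of these B-gated cells sat in few cells, as given below. The same count over all genes was not made.

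Mki67, the Ki-67 protein that coats mitotic chromosomes, was at 829 CPM in globin-poor and 1511 CPM in globin-intermediate erythroid cells. It was at 37.8 and 28.8 CPM in Kupffer-gated cells of libraries 1 and 2, and at 3.28 and 15.04 CPM in endothelial-gated cells. In libraries 1 and 2 it was at 36.7 and 151 CPM in monocyte-gated, 141 and 74.6 CPM in dendritic-gated, 33.8 and 202 CPM in B-gated and 67.7 and 163 CPM in T or natural killer-gated cells. It was at 0 and 36.5 CPM in stellate or fibroblast-gated and 21.3 and 31.9 CPM in hepatocyte-gated cells. Top2a, the topoisomerase that untangles sister DNA, was at 720 and 719 CPM in those erythroid stages, at 38.5 and 23.9 CPM in Kupffer-gated cells and at 5.46 and 6.69 CPM in endothelial-gated cells. The other lineages with at least 24 cells ranged from 0 CPM, in B-, stellate- and hepatocyte-gated cells of library 1, to 248 CPM in B-gated cells of library 2. Ube2c was at 500 and 1003 CPM in the erythroid stages, at 32.0 and 39.6 CPM in Kupffer-gated cells, and at 5.46 and 11.7 CPM in endothelial-gated cells. The other lineages with at least 24 cells ranged from 0 CPM, in stellate-gated cells of both libraries and in B- and hepatocyte-gated cells of library 1, to 110 CPM in B-gated cells of library 2. These ranges leave out 3 cells of library 2 with granulocyte precursor markers, in which Top2a was at 591 CPM (14 UMIs), Ube2c at 169 CPM (4 UMIs) and Dut at 253 CPM (6 UMIs). Among groups with at least 24 cells, 11 of the 22 mitotic members had their highest level of library 2 in globin-poor and 11 in globin-intermediate cells. Of the 13 S-phase members, 12 were highest in globin-poor cells and Rrm2 in globin-intermediate cells. Over all genes tested, 49.8% were at least 2-fold lower in globin-intermediate than in globin-poor cells and 8.32% higher. How often all genes were highest in each group was not counted.

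The log2 ratios of the 5 broad members between globin-poor erythroid and Kupffer-gated cells of library 2 ran from 2.36 (Tubb5) to 4.83 (Hmgb2). H2afz, a histone variant, was at 2297 CPM in globin-poor erythroid cells, at 288 and 289 CPM in Kupffer-gated cells, at 803 and 1377 CPM in monocyte-gated cells and at 128 and 160 CPM in hepatocyte-gated cells of libraries 1 and 2. Tubb5 was at 1199 CPM in globin-poor cells and between 233 and 451 CPM in Kupffer-, monocyte- and endothelial-gated cells of both libraries. Hmgb2, a chromatin protein, was at 1597 CPM in globin-poor cells, 130 and 56.2 CPM in Kupffer-gated cells and 586 and 674 CPM in T or natural killer-gated cells. Stmn1, which destabilises microtubules, was at 621 CPM in globin-poor cells, 56.0 and 39.5 CPM in Kupffer-gated cells and 340 CPM in B-gated cells of library 2. Cks1b, a subunit of cyclin-dependent kinases, was at 161 CPM in globin-poor cells and at 12.6 and 14.001 CPM in Kupffer-gated cells.

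Within the erythroid lineage, as a share of UMIs, the S-phase genes were lower before the mitotic genes were. Cells were split by globin share into globin-poor (under 25%, 284 cells), globin-intermediate (25% to 60%, 356 cells) and globin-dominated (over 60%, 272 cells). The S-phase sum was 4727, 2369 and 187 CPM in these stages and the mitotic sum 5296, 6514 and 2599 CPM, so that there were 1.12, 2.75 and 13.9 mitotic UMIs for each S-phase UMI. A high globin share lowers the CPM of every other gene by construction, so the sums were also taken per 1000000 non-globin UMIs. The S-phase sum was then 5035 (4972 to 5098), 4160 (4050 to 4272) and 656 (588 to 731), and the mitotic sum 5642 (5575 to 5709), 11438 (11256 to 11623) and 9136 (8875 to 9403). Depth moved with the stages: the median cell had 17854, 5430 and 5573 UMIs and 15404.5, 2799 and 1628 non-globin UMIs. In molecules, the mean cell had 86.9, 15.3 and 1.22 S-phase UMIs and 97.4, 42.0 and 17.0 mitotic UMIs. By that measure both sums were lower at each later stage and lowest in globin-dominated cells.

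Between globin-dominated and globin-poor cells, the direction of the mitotic sum depends on the total used and that of the S-phase sum does not. Over all UMIs the log2 ratio was −4.66 (−4.82 to −4.51) for the S-phase sum and −1.03 (−1.07 to −0.98) for the mitotic sum. Per non-globin UMI it was −2.94 (−3.10 to −2.78) and 0.70 (0.65 to 0.74). With all UMIs, 13 of 13 S-phase, 18 of 22 mitotic and 5 of 5 broad members were at least 2-fold lower in globin-dominated cells, where 81.5% of 7256 genes tested were, and 0 were higher, where 3.73% were. Per non-globin UMI, 13 of 13 S-phase members were at least 2-fold lower, where 40.8% of 8174 genes were. Of the mitotic members 4 were then at least 2-fold higher, where 22.3% of genes were, 4 were lower and 14 lay within 2-fold. The median over S-phase members was −3.86, that over mitotic members −0.09 and that over all genes tested −0.61.

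The 4 mitotic genes at least 2-fold higher per non-globin UMI were Ube2c, Nusap1, Mki67 and Cenpf. Ube2c, which marks cyclins for destruction as a cell leaves mitosis, was at 2.30 (2.20 to 2.39) on the log2 scale. It was the only one of the 40 members above its globin-poor level with all UMIs counted too, at 745 against 500 CPM. Nusap1, a spindle protein, was at 1.61 (1.44 to 1.78), Mki67 at 1.18 (1.08 to 1.28) and Cenpf, a kinetochore protein, at 1.11 (0.90 to 1.31). The 4 lower genes were Aurkb (−1.36), the kinase that corrects spindle attachment, Bub1 (−1.06) and Bub1b (−1.04) of the spindle checkpoint, and Kif20a (−1.02), a motor of cell cleavage. Their intervals all reached above −1, with 12 to 16 UMIs each in globin-dominated cells, so these genes lie at the 2-fold mark within counting error. Cyclins B1, B2 and A2 (Ccnb1, Ccnb2 and Ccna2) were at −0.39, 0.47 and 0.27, and Cdk1, the kinase they drive, at −0.11 (−0.52 to 0.28).

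**Figure D2:**
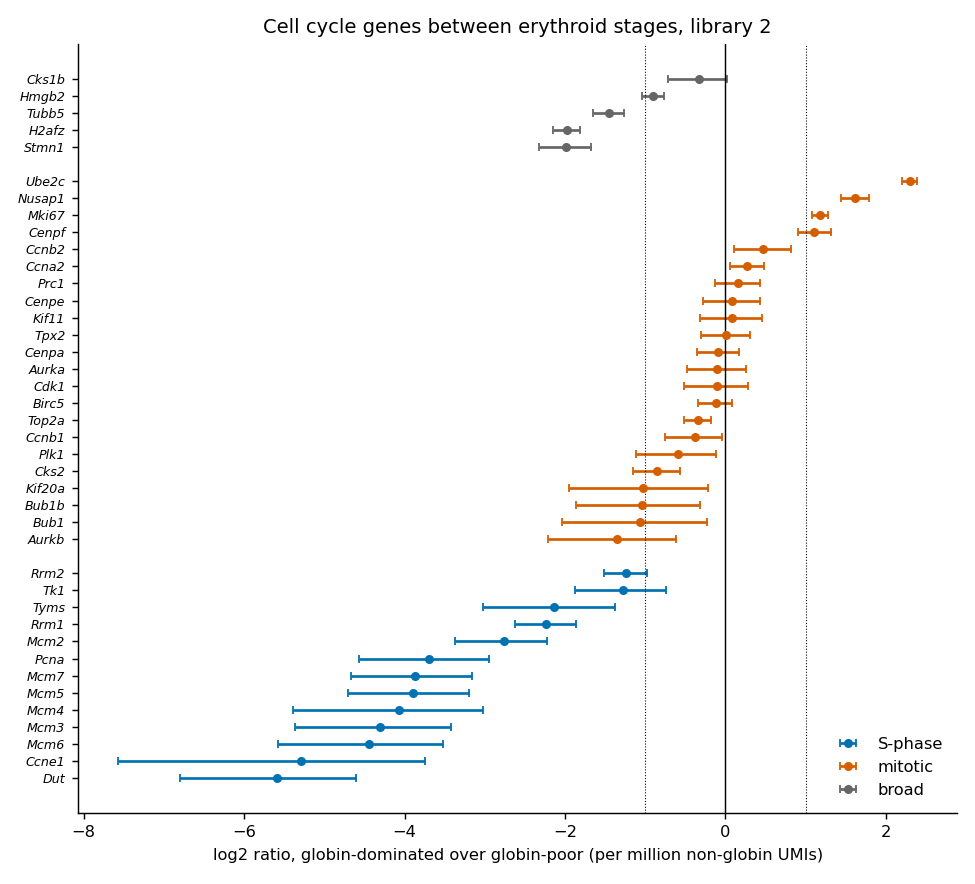
Log2 ratio of each of the 40 members between globin-dominated and globin-poor erythroid cells of library 2, per 1000000 non-globin UMIs, with conditional exact 95% intervals and dotted lines at 2-fold. All S-phase members (blue) lie left of −1, and mitotic members (orange) spread from −1.36 for Aurkb to 2.30 for Ube2c.

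The S-phase genes differed among themselves in this comparison. Dut (−5.59) and Ccne1 (−5.29) had the lowest ratios per non-globin UMI, with 8 and 3 UMIs left in the 272 globin-dominated cells. The 6 helicase genes Mcm2 to Mcm7 were between −4.45 (Mcm6) and −2.77 (Mcm2), and Pcna was at −3.70 (−4.57 to −2.95). The suppliers of deoxynucleotides other than Dut stood nearest to 0: Rrm1 at −2.23, Tyms at −2.14, Tk1 at −1.28 and Rrm2 at −1.24 (−1.51 to −0.97). Between globin-intermediate and globin-poor cells Rrm2 (0.83), Tk1 (0.51) and Tyms (0.44) were higher per non-globin UMI, while Dut was at −1.95 and Mcm3 at −0.78. With all UMIs counted, 7 of 13 S-phase members were at least 2-fold lower in globin-intermediate cells, where 49.8% of 7453 genes were, and 1 of 22 mitotic members, Ube2c, was higher, where 8.32% were. Per non-globin UMI 1 of 13 S-phase members was at least 2-fold lower, where 24.3% of 7984 genes were, and 5 of 22 mitotic members were at least 2-fold higher, where 19.5% were.

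A finer split by globin share gave the order of these programs per non-globin UMI. In 9 bins with between 60 and 147 cells, the S-phase sum per 1000000 non-globin UMIs was 4371 in cells with under 5% globin. It was highest, at 6278, between 15% and 25% and at 3381 between 45% and 55%. Above 75% it was 209, from 18 UMIs. The mitotic sum was 4593 below 5% globin, 14593 at its highest between 45% and 55%, 7912 between 65% and 75% and 4358 above 75%. Peak bins of the single members were split in the same way: all 13 S-phase members had their highest level below 35% globin, and 18 of 22 mitotic members had it between 45% and 65%. The other 4 mitotic members peaked between 15% and 35% globin: Bub1, Cdk1, Cks2 and Kif20a. How the peaks of all genes were spread over the bins was not counted. With all UMIs counted, the S-phase sum was highest between 5% and 15% globin (5500 CPM) and the mitotic sum between 25% and 35% (7452 CPM). The mean cell had most S-phase and mitotic UMIs below 5% globin, 113 and 119, against 10.0 and 43.3 between 45% and 55%. Median depth differed across the bins, with 26927.5 UMIs per cell below 5% globin and 4629.5 between 35% and 45%, and was between 4894 and 5642.5 in the bins above.

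**Figure D3:**
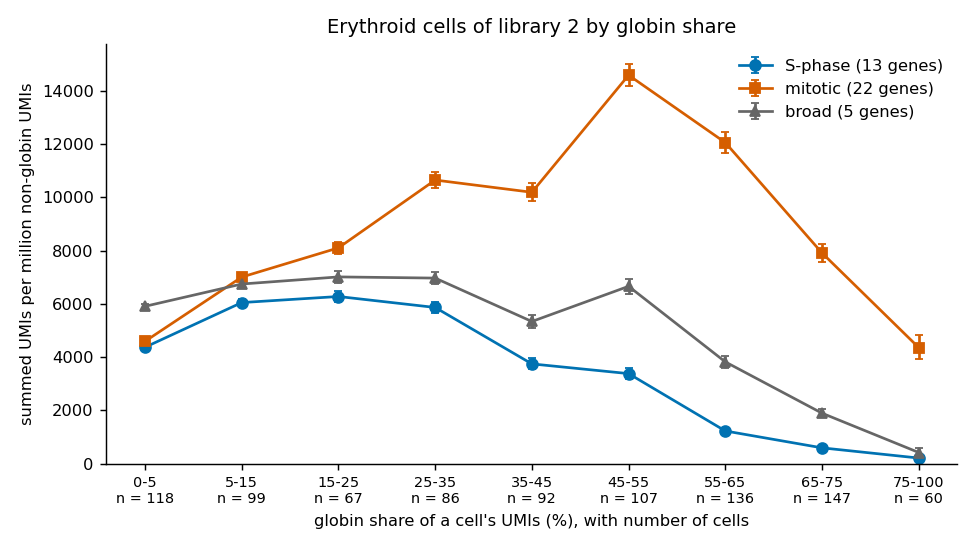
Summed UMIs of the S-phase (blue), mitotic (orange) and broad (grey) genes per 1000000 non-globin UMIs in erythroid cells of library 2, binned by globin share, with exact Poisson 95% intervals and the number of cells. The S-phase curve is highest at 15% to 25% globin and the mitotic curve at 45% to 55%.

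Single genes differed in where they were highest. Dut was at 842 per 1000000 non-globin UMIs below 5% globin, its highest bin, and at 116 between 45% and 55%. Pcna was at 283 below 5%, 606 between 15% and 25% and 50.7 between 55% and 65%. Rrm2 stayed high for longer, with 363 below 5%, 1110 between 25% and 35% and 1077 between 45% and 55%. Mki67 was at 631 below 5%, 3601 between 45% and 55%, 1824 between 65% and 75% and 626 above 75%. Cenpf was at 172 below 5%, 680 between 45% and 55% and 127 above 75%, so both genes were back at or under their level below 5% in the last bin. Ube2c was at 407 below 5%, 2551 between 55% and 65% and 2272 above 75%, which is 89.1% of its peak. Top2a, with a peak of 1508 between 45% and 55%, was at 58.0 above 75%, and Aurkb, Plk1, Cdk1, Kif11 and Kif20a had 0 UMIs in that last bin of 60 cells and 86281 non-globin UMIs.

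Per cell, fewer globin-dominated cells held S-phase than mitotic genes at equal total depth. The thinned UMIs include globin, at a median of 6.56%, 45.1% and 69.6% in globin-poor, globin-intermediate and globin-dominated cells, so the depth outside globin was not matched. When each cell was thinned at random to 2000 UMIs, leaving out shallower cells, at least 2 mitotic genes were found in 237 of 240 globin-poor cells (98.8%, 96.4% to 99.7%), 216 of 267 globin-intermediate cells (80.9%, 75.7% to 85.4%) and 100 of 256 globin-dominated cells (39.1%, 33.0% to 45.3%). At least 2 S-phase genes were found in 236 (98.3%), 158 (59.2%) and 13 (5.08%) of these cells. Globin-dominated cells with at least 2 mitotic but fewer than 2 S-phase genes numbered 88. The thinning left out 44, 89 and 16 cells. Mitotic RNA was uneven among globin-dominated cells: the mean was 17.0 UMIs and the median 3. The cuts at 25% and 60% globin had 82 and 136 of the 912 cells within 5 percentage points of them.

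Genes that govern the step from G1 to S were followed over the same bins. Of 7 cyclins and kinases of this step (Ccnd1, Ccnd2, Ccnd3, Ccne2, Cdk2, Cdk4 and Cdk6), Cdk6 was at 303 per 1000000 non-globin UMIs below 5% globin and at 10.0 between 15% and 25%, and Cdk4 at 322 and 90.1 in these bins. Ccnd2 was at 114 below 5% and 25.04 between 15% and 25%. Ccnd3, the D cyclin of erythroid cells, was at 275 below 5%, 771 between 25% and 35% and 88.7 between 55% and 65%. Ccnd1 was at most 37.8 in any bin, and Cdk2, the partner of cyclin E, was highest at 124 between 25% and 35%. Between globin-dominated and globin-poor cells, 6 of the 7 were at least 2-fold lower per non-globin UMI and 1, Ccnd1, was higher, from 13 UMIs, where 40.8% of all genes tested were lower and 22.3% higher.

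The inhibitors of these kinases showed another order. Cdkn1b (p27) was at 22.01 per 1000000 non-globin UMIs below 5% globin and at 544 between 65% and 75%, and Cdkn2d (p19) was at 8.21 below 5% and 532 between 55% and 65%. Cdkn2c (p18) was highest at 157 between 45% and 55%. Per non-globin UMI, Cdkn1b was 3.75 (3.46 to 4.04) and Cdkn2d 3.87 (3.53 to 4.22) higher on the log2 scale in globin-dominated than in globin-poor cells. Both were also higher with all UMIs counted, at 133 against 32.6 CPM and 99.5 against 22.4 CPM. Cdkn1a (p21) had 146 UMIs in globin-poor, 43 in globin-intermediate and 30 in globin-dominated cells, the last in 9 cells. Per 1000000 non-globin UMIs Cdkn1a had no steady direction. It was at 17.4 below 5% globin, 79.2 between 55% and 65%, 11.1 between 65% and 75% and 92.7 above 75%. Cdkn1c, Cdkn2a and Cdkn2b had 8 UMIs or fewer each in any of these stages. E2f2, an E2F factor singled out after its values were seen, was at 59.1 per 1000000 non-globin UMIs below 5% globin and 1070 between 45% and 55%, and stayed at 927 above 75%.

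**Figure D4:**
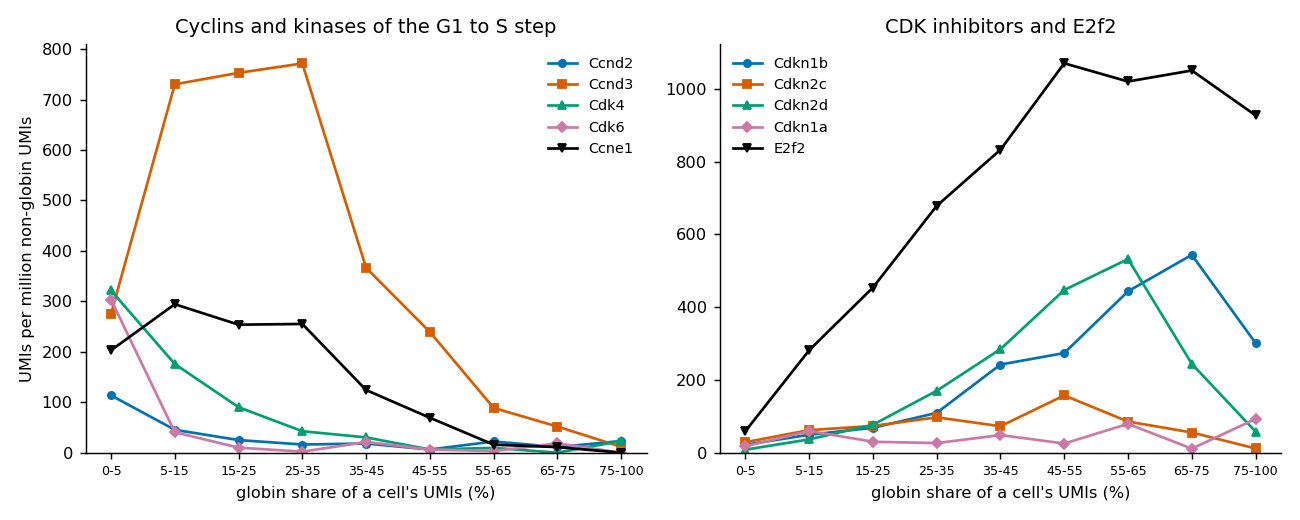
UMIs per 1000000 non-globin UMIs of cyclins and kinases of the G1 to S step (left) and of CDK inhibitors with E2f2 (right) in erythroid cells of library 2 by globin share. Cdk6, Cdk4 and Ccnd2 are highest below 5% globin, Ccnd3 between 25% and 35%, and Cdkn2d and Cdkn1b at 55% to 65% and 65% to 75%.

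Further genes of the same programs, listed beside the members, gave like counts. Per non-globin UMI, 12 of 12 further S-phase genes were at least 2-fold lower in globin-dominated than in globin-poor cells, with a median of −3.19. Of 21 further mitotic genes, 1 was higher, 3 were lower and 17 lay within 2-fold, with a median of −0.03. Over all genes tested in this comparison, 40.8% were at least 2-fold lower and 22.3% higher. The higher gene, named after its values were seen, was Pttg1 (2.21), securin, which holds back the separation of sister chromatids until anaphase. The most abundant further S-phase genes in globin-poor cells were Slbp, the histone mRNA binding protein, at 616 CPM, and Cdt1, which loads the helicase, at 247 CPM. The most abundant further mitotic genes were the condensin subunits Smc4 and Smc2, at 388 and 381 CPM.

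In Kupffer-gated cells, a large share of the mitotic RNA sat in few cells. The 23 cells with most mitotic UMIs, 1% of library 1, held 47.8% of its mitotic UMIs in this lineage, and the 42 such cells of library 2 held 36.4%. The same number of cells with most S-phase UMIs held 27.3% and 23.9% of the S-phase UMIs. No mitotic UMI was found in 1589 of 2261 cells (70.3%) of library 1 and 2133 of 4242 cells (50.3%) of library 2. Thinned to 2000 UMIs, at least 2 mitotic genes were found in 90 of 1386 cells of library 1 (6.49%, 5.25% to 7.92%) and 148 of 2919 cells of library 2 (5.07%, 4.30% to 5.93%). Unthinned, these shares were 11.1% and 20.4% at median depths of 3457 and 5835 UMIs. Endothelial-gated cells, taken as a lineage with little division, gave 3 of 205 (1.46%) and 3 of 117 (2.56%) at the thinned depth. With at least 4 mitotic genes, the counts were 47 (3.39%, 2.50% to 4.48%) and 40 (1.37%, 0.98% to 1.86%) in Kupffer-gated cells and 0 in endothelial-gated cells of both libraries, which at 205 and 117 cells allows a share of up to 1.46% and 2.56%, taking 3 cells of the total as the limit.

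**Figure D5:**
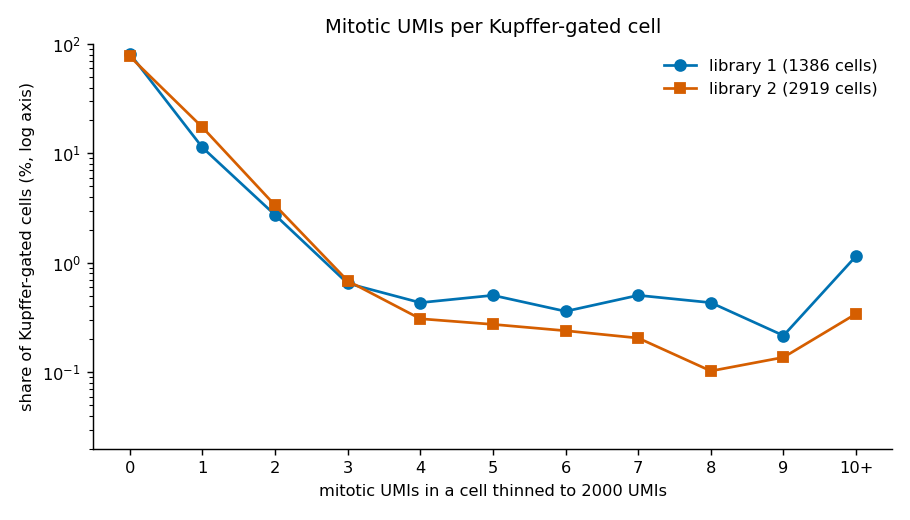
Share of Kupffer-gated cells, on a log axis, by the number of mitotic UMIs after thinning to 2000 UMIs, in library 1 (blue circles) and library 2 (orange squares). Cells with 0 UMIs made up 81.7% and 77.0%, and 16 and 10 cells had 10 or more.

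The Kupffer-gated cells with at least 4 mitotic genes at 2000 UMIs also had S-phase RNA. At least 2 S-phase genes were found in 26 of 47 such cells of library 1 and 26 of 40 of library 2, against 4.95% and 4.89% of cells without a mitotic UMI. Their median level of the Kupffer markers, which the gate required of every cell, was 140 and 144 UMIs per 10000, against 181 and 188 in cells without a mitotic UMI. Their full depth was larger in library 2, with a median of 12991.5 UMIs against 8757, and 7133 against 5943 in library 1. UMIs of early erythroid markers were absent from 44 of the 47 cells of library 1 and from 22 of the 40 cells of library 2, against 77.9% of cells without a mitotic UMI in library 2. The part of droplets with 2 cells in these values was not tested.

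Erythroid RNA was also present in Kupffer-gated droplets of library 2. These cells had 4.58 mitotic UMIs for each UMI of an early erythroid marker, while the erythroid cells of that library had 2.04, and in library 1 the Kupffer-gated ratio was 38.7. In the 1660 Kupffer-gated cells of library 2 without any erythroid marker UMI the mitotic sum was 196 CPM, and in the 2036 such cells of library 1 it was 304 CPM. Ube2c was at 28.7 CPM (24.9 to 32.8) in those cells of library 2 and at 43.2 CPM (40.5 to 46.0) in the 2582 cells with an erythroid marker UMI. Nusap1 was at 5.95 CPM (4.32 to 7.99) and 11.6 CPM (10.2 to 13.1), so for both genes the intervals did not overlap. They overlapped for the other 20 mitotic members, among them Mki67 at 29.7 and 28.5 CPM and Top2a at 22.3 and 24.4 CPM. Of the S-phase members, Mcm5, Rrm2 and Dut were also higher with intervals that did not overlap. How often this held over all genes was not counted. In library 1 Ube2c was at 33.5 CPM without and 22.03 CPM with an erythroid marker UMI. Nusap1 was at 12.8 and 15.4 CPM there, and for both genes these intervals overlapped.

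Between the libraries, the sums in Kupffer-gated cells were slightly lower in library 2. The log2 ratio was −0.28 (−0.34 to −0.22) for S-phase and −0.44 (−0.51 to −0.38) for mitotic genes. The median over all 8229 genes tested was −0.33, so the S-phase sum was not below the shift of all genes. Of the 26 members with at least 10 CPM, 0 were at least 2-fold higher, where 2.47% of genes were, and 2 were lower, Cenpe (−1.06), a kinetochore motor, and Hmgb2 (−1.21), where 9.34% were. As a mean over cells, the sums were at −0.04 and −0.02, and without the shallow shared barcodes at −0.32 and −0.49. Of the other cycle genes in these cells, Ccnd1 was at 155 and 85.5 CPM, Ccnd2 at 43.9 and 19.4 CPM and Ccnd3 at 52.5 and 54.1 CPM in libraries 1 and 2. Cdkn1a was at 15.2 and 50.7 CPM, a log2 ratio of 1.74 (1.502 to 1.99), and Cdkn1b at 96.6 and 64.6 CPM. Cdkn2a was at 2.06 and 5.23 CPM, Cdkn2b at 0.59 and 2.00, Cdkn2c at 6.85 and 3.06, Cdkn2d at 4.31 and 5.37 and Cdkn1c at 2.06 and 0.85.

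Blood-derived cells of the liver gave sums that rested on a handful of cells. Monocyte-gated cells had a mitotic sum of 280 CPM (246 to 317) in 166 cells of library 1 and 987 CPM (910 to 1068) in 112 cells of library 2, a log2 ratio of 1.82 (1.60 to 2.04). Of 21 mitotic members with at least 10 CPM, 20 were at least 2-fold higher in library 2, where 6.10% of 8513 genes were, and 0 were lower, where 12% were. The 5 cells with most mitotic UMIs held 69.3% and 70.7% of them. At 2000 UMIs at least 2 mitotic genes were found in 4 of 155 (2.58%, 0.71% to 6.48%) and 14 of 106 cells (13.2%, 7.41% to 21.2%). Early erythroid markers gave 0 UMIs in library 1 and 16 in library 2, which is 38.4 mitotic UMIs for each.

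Conventional dendritic-gated cells went the other way in the mitotic sum. It was 1139 CPM (1036 to 1249) in 42 cells of library 1 and 406 CPM (358 to 458) in 79 cells of library 2, a log2 ratio of −1.49 (−1.72 to −1.27), with 19 of 22 mitotic members at least 2-fold lower, where 15% of 8555 genes were. In library 1, 5 cells held 95.8% of the mitotic UMIs, so this level is that of 5 cells. The S-phase sum was 415 and 437 CPM, a ratio of 0.07 (−0.21 to 0.36), with 3 of 12 S-phase members at least 2-fold higher, where 5.19% of genes were. B-gated cells of library 2 had a mitotic sum of 1495 CPM, 92.6% of it in 5 of 68 cells, and 181 CPM, from 16 UMIs, in 41 cells of library 1. T or natural killer-gated cells had 28 mitotic UMIs in 24 cells of library 1 and 123 in 49 cells of library 2.

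Endothelial-gated cells had less mitotic than S-phase RNA. In library 1 their S-phase sum was 293 CPM (259 to 330) and their mitotic sum 119 CPM (97.7 to 144). In library 2 these were 249.0 CPM (211 to 292) and 115 CPM (89.7 to 146), which is 0.41 and 0.46 mitotic UMIs for each S-phase UMI. In Kupffer-gated cells that ratio was 1.01 and 0.91. Mcm3 led the S-phase UMIs with 67 of 268 and 38 of 149 of them. Of 16 members with at least 10 CPM, 3 were at least 2-fold higher in library 2, where 6.70% of 9460 genes were, and 1 was lower, Cenpa, where 13.6% were. Cenpa, the histone of the centromere, made up 59 of 109 mitotic UMIs in library 1 and 15 of 69 in library 2. Of the D cyclins, Ccnd2 was at 1011 and 480 CPM and Ccnd1 at 499 and 129 CPM in these cells, against 80.1 and 9.003 CPM in globin-poor erythroid cells. Ccnd3 was at 78.6 and 85.2 CPM, against 423 CPM in globin-poor erythroid cells. Ccnd2 was higher in T or natural killer-gated cells, at 1432 and 719 CPM. Cdkn1c (p57) was at 61.1 and 61.8 CPM in endothelial-gated cells and at most 7.54 CPM in the Kupffer, monocyte and dendritic gates.

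Hepatocyte- and stellate or fibroblast-gated cells had few mitotic UMIs. Hepatocyte-gated cells had 4 mitotic UMIs in 56 cells of library 1 (42.6 CPM, 11.6 to 109) and 41 in 85 cells of library 2 (164 CPM, 117 to 222), with 3.15 mitotic UMIs for each early erythroid marker UMI in library 2. Stellate or fibroblast-gated cells had 10 and 17 mitotic UMIs in 32 and 44 cells of libraries 1 and 2 (137 and 155 CPM). Cks2, a small partner of cyclin-dependent kinases, made up 9 of these 10 and 7 of these 17.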

How the data were processed

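Per the labels' protocols, liver cells enriched for F4/80 were sequenced with 10x Chromium 3′ v3 chemistry. The deposited values are UMI counts per gene and cell in 1 matrix of both libraries. Per the submitters' processing notes, Cell Ranger 3.0.1, R 3.6.1 and GRCm38.p5 were used. No mapping from the barcode suffix to the genotype is used here, so there were no tests between libraries.

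Cells with fewer than 200 genes or above 20% mitochondrial UMIs were left out (5384 and 2783 barcodes exceeded the latter). A lineage gate needed at least 3 detected markers and 20% of the marker level of the 30 leading cells. Cells past 2 gates were set apart (81 and 281), and no doublet caller was run. Counts were pooled per lineage as CPM, over all UMIs or without globin, and genes with at least 10 CPM in either group were compared by 2-fold. Pooled counts have exact Poisson, ratios conditional exact and shares Clopper-Pearson 95% intervals. Values in every lineage were given for the members with most UMIs, the broad members, Mki67, Top2a, Pcna and Ccne1. Of the other lists the 2 highest genes of a lineage, all CDK inhibitors and all D cyclins could be named. The members, lists and promoter letters were chosen with earlier results of these data known. Alternatives changed the filters, gates, totals, globin cuts and depth. The ratio code was tested on simulated data. The scripts used scipy 1.17.1, numpy 2.4.6, pandas 2.3.3 and matplotlib 3.10.9 under Python 3.11.15.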

Additional observations from a re-analysis of the deposited data

Results flagged for a closer look

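The mitotic sum differed in direction between libraries in a pair of lineages. In monocyte-gated cells the log2 ratio of library 2 over library 1 was 1.82, and in conventional dendritic-gated cells it was −1.49. The difference between these ratios was not tested, since each library is 1 sample, and 5 cells held between 67.8% and 95.8% of the mitotic UMIs in each of the 4 groups.

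Mitotic RNA was also found in the barcodes set aside for more than 20% mitochondrial UMIs. The mitotic sum was 156 CPM (150 to 162) in 5384 such barcodes of library 1 and 369 CPM (358 to 381) in 2783 of library 2, and the S-phase sum was 168 and 264 CPM. These barcodes entered none of the comparisons above.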

How the results depend on the processing

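No paired analysis was possible because each genotype was 1 library. Of 85 values under other settings, 34 stayed within counting error (counts of members within 1.5 times), 49 moved further and 2 reversed, and the cause was not tested except where the setting itself gives it. The mitotic log2 ratio of globin-poor over globin-dominated cells, 1.03 over all UMIs, was −0.70 without globin and −0.57 without globin, mitochondrial and ribosomal protein genes. The S-phase ratio of these stages, 4.66, was 2.94 and 3.06 under these totals, 3.72 with a median-of-ratios size factor, 4.89 and 4.03 with the gates at 0.5 and 2 times their level, 3.51 and 6.23 with globin cuts of 15% and 50% or 35% and 70%, and 4.93 as a mean over cells. In the same order from the size factor on, the mitotic ratio was 0.082, 1.27, 0.44, 0.53, 2.52 and 1.42. It was 1.08 and 0.88 with at most 40% or 10% mitochondrial UMIs and 0.87 with at least 500 genes. Globin-poor over Kupffer-gated cells, 4.59, gave 4.39 at 10% mitochondrial UMIs, 4.84 without globin, mitochondrial and ribosomal genes, 4.24 with size factors, 5.10 with stricter gates, 4.46 with cells past 2 gates assigned, 4.53 and 4.66 with the globin cuts and 4.26 as a mean over cells.

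For library 2 over library 1 in Kupffer-gated cells, the S-phase ratio of −0.28 was −0.15 at 40% mitochondrial UMIs, −0.20 without globin, −0.21 without globin, mitochondrial and ribosomal genes, −0.083 with size factors and −0.043 as a mean over cells. The mitotic ratio of −0.44 was −0.17 at 40% and −0.25 at 10% mitochondrial UMIs, −0.36 and −0.37 under those totals, −0.24 with size factors, −0.53 and −0.14 with the looser and stricter gates, −0.33 with cells past 2 gates assigned and −0.022 as a mean over cells. In Kupffer-gated cells without an erythroid marker UMI, a setting chosen after seeing the data, the ratios were −0.51 and −0.63. The share with at least 2 mitotic genes in library 2, 5.07%, was 2.63% at 1000 UMIs, 10.2% at 4000 UMIs, 20.4% unthinned, 3.98% with stricter gates, and, in settings chosen after seeing the data, 4.07% without erythroid marker UMIs and 1.37% with at least 4 genes. The 2 members past 2-fold in Kupffer-gated cells were 1 at a minimum of 50 CPM and 5 without a minimum. Depth limits all lineages but the Kupffer and erythroid gates, where sums rest on few cells.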
